A study of Mus musculus with 7 samples.

Results

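Newly made RNA was compared between GFI1+ IAHC cells in which γ-secretase stayed inhibited and the same kind of cells in which it had been released. The inhibited side held 2 libraries and the released side held 5, and the released side joined 3 washout libraries with 2 libraries that also received Fc-JAG1. All genes entered the comparison: of 55487 genes in the count table, 10311 passed the study's filter, which asks for 10 counts or more in at least 2 libraries of the same condition. A direction was said to hold when both inhibited libraries lay above, or both below, all 3 washout and both Fc-JAG1 libraries.

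The cells were sorted as CD31+cKIT+GFI1+ from E11.5 AGM of the CD1/Gfi1:tomato strain (the labels write CD1/Gf1+). IAHC are the clusters of blood-forming cells that bud from the wall of the embryonic aorta. All 7 libraries had first spent a night in compound E, an inhibitor of γ-secretase, so the released cells were recovering cells and not untreated ones. The cells were then washed, divided into sets of 300 to 400 cells and kept for 4 h in methylcellulose with ethynyl uridine, which marks RNA made during that time. The washout libraries had DMSO in these hours, the compE libraries had compound E again, and the Fc-JAG1 libraries had a recombinant form of the Notch ligand JAG1. The cells came from pools of embryos, and the number in a library's name is the embryo number of its label. No compE library carries the number 3, and Fc-JAG1 2 was not analysed here.

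Notch receptors are cut by γ-secretase after a ligand binds them, and the freed intracellular part enters the nucleus. There it joins the DNA-binding protein RBPJ and coactivators of the Mastermind family and switches on genes such as those of the Hes and Hey families. In the aorta this pathway is needed for blood stem cells to form, and γ-secretase also cuts many other membrane proteins, cadherins among them.

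Total counts ran from 21652927 to 33974693 per library. The number of genes at 10 or more counts was 8096 and 12083 in the compE libraries, 6265, 12351 and 7585 in the washout and 11600 and 8006 with Fc-JAG1, and it did not separate the groups (exact permutation test, two-sided, p = 0.571). With 2 libraries against 5 there are 21 splits, and the smallest two-sided p such a test allows is 0.0952. Of the genes tested, 40.4% had 0 counts in at least 1 library and counts in another, and only 3035 reached 10 counts in all 7. Kit, Runx1, Cd34, Pecam1 and Spn, markers of the sorted cells, were at 10 or more counts in all 7 libraries. Pecam1 had only 18 counts in washout 1 and 11 in Fc-JAG1 3, against 1186 to 6314 in the others. Ptprc reached 10 counts in 6 libraries, with 3 counts in washout 3 and 2183 to 19875 in the others. Gfi1 itself had 0 counts in both compE libraries, 0, 12 and 2477 counts in the washout and 2504 and 0 with Fc-JAG1, while Cdh5 and Procr did not pass the filter. Markers of other cells were sparse: none of 10 neural and none of 8 epithelium markers passed, and of 11 mesenchyme markers 1 did (Acta2). Of 12 macrophage markers 6 passed, Csf1r with counts in every library, whereas C1qc was at 0 throughout and C1qa, C1qb, Mrc1 and Timd4 did not pass. Adgre1 did not pass either, at 3 and 3361 counts with compE, 3, 476 and 5 in the washout and 42 and 3 with Fc-JAG1. The macrophage markers that passed summed to 103 and 293 CPM (CPM are counts scaled to a common library size by edgeR's TMM method) in the compE libraries and to between 421 and 524 CPM in the released ones. Taken singly, 0 of these 6 markers held in either direction. Csf1r, for one, had 1471 and 3627 counts with compE. It had 1605, 1018 and 2987 counts in the washout and 2031 and 2612 with Fc-JAG1. In such bulk libraries fewer cells of a type and less RNA per cell cannot be told apart.

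No gene was called between the inhibited and the released libraries. In edgeR's quasi-likelihood test with Benjamini-Hochberg adjustment, 0 genes (0%) were called higher and 0 (0%) lower with compE, and the smallest adjusted p was 0.586. At an unadjusted p under 0.05, 354 genes (3.43%) were higher and 83 (0.805%) lower. The same counts in DESeq2's Wald test gave 91 genes (0.883%) higher and 170 (1.65%) lower with compE at an adjusted p under 0.05, so the number of calls and their balance turned on the test. The genes below are therefore given by their values in each library, with no gene described as changed.

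Directions that held in both released conditions were found for 516 genes with compE higher (5% of the genes tested) and 256 with compE lower (2.48%). With DESeq2's size factors in place of TMM the split was 406 higher and 321 lower, and with total counts alone 548 and 224, so the size of the excess on the higher side depended on the scaling. Against the washout alone, both compE libraries lay above for 1121 genes (10.9%) and below for 700 (6.79%). Against Fc-JAG1 alone, they lay above for 1587 genes (15.4%) and below for 1548 (15%). Both comparisons share the compE libraries, so a gene high in them is high in each. Of the 516 genes on the higher side 231 (44.8%) passed the filter only through the compE libraries, beside 7.2% of all genes tested, and such a gene had to reach 10 counts in both compE libraries to be tested. On the lower side there were 0. Among the 3035 genes at 10 counts in all 7 libraries 91 (3%) lay above and 116 (3.82%) below, and with the scaling recomputed on those genes alone 120 lay above and 99 below, so the balance there turned with the scaling. A gap of 4-fold or more between the nearest compE and released library was left by 85 of the higher and 19 of the lower genes.

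**Figure D1:**
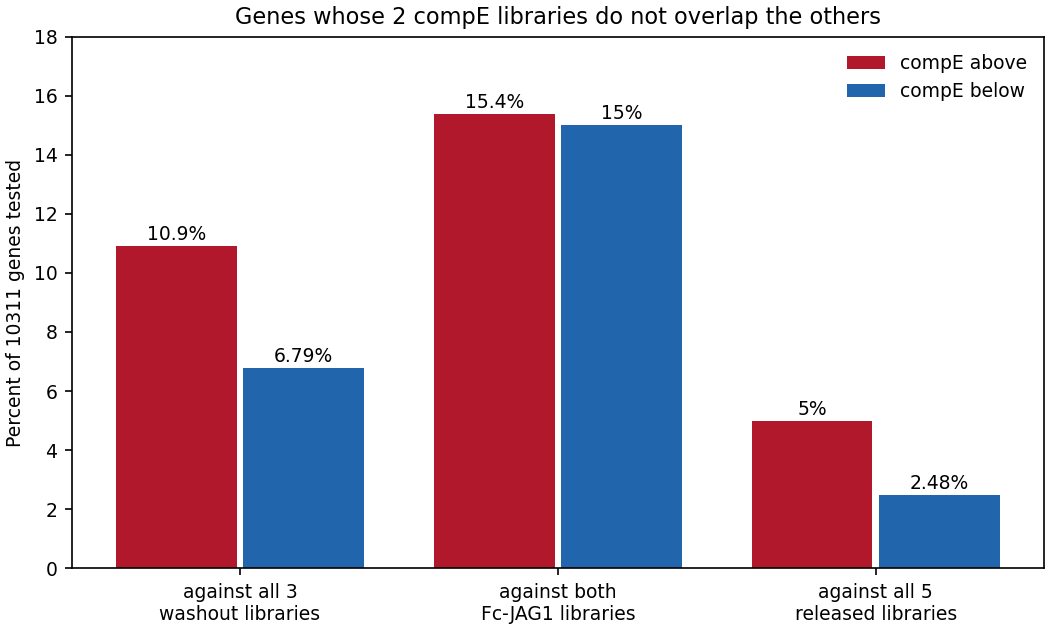
The bars give the percent of the 10311 genes tested whose 2 compE libraries lay above (red) or below (blue) the libraries named under each pair of bars. Held against all 5 released libraries were 5% above and 2.48% below.

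By fitted log2 fold change, a looser measure that ignores the overlap of libraries, 3160 genes (30.6%) were above 0 against both released conditions and 3513 (34.1%) below 0 against both. A further 1622 genes (15.7%) were above 0 against the washout and below 0 against Fc-JAG1, and 1969 (19.1%) were the reverse. Neither contrast called a gene in edgeR's quasi-likelihood test on 3 conditions: the smallest adjusted p was 0.0761 for compE against the washout, where 370 genes were higher and 246 lower at an unadjusted p under 0.05, and 1 against Fc-JAG1, with 234 higher and 206 lower.

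Within the Notch pathway, the members that held were a ligand, a pair of regulators, a corepressor partner and a γ-secretase subunit. Of 17 receptors, ligands and modifiers tested, 3 held with compE higher and 0 with compE lower, beside 5% and 2.48% of all genes. Dll3, a Delta-like ligand that dampens Notch signaling within its own cell (chromosome 7, 28293553 to 28302238, GRCm38), had 104 and 75 counts with compE and 0 counts in all 5 released libraries. Set against a floor of 3 counts per library, its mean CPM with compE was at least 26.4-fold higher, and edgeR's quasi-likelihood adjusted p was 0.586. Dll3 passed the filter only through its compE libraries.

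Numbl, whose protein is a relative of the Notch inhibitor Numb, stood at 62.2 and 15 CPM with compE. It stood at 1.1, 0.111 and 0.0356 CPM in the washout and at 0.0274 and 0.0424 CPM with Fc-JAG1. All 5 released libraries lay below, by 13.6-fold or more, and the log2 fold change was 7.65 ± 2.46 (SE), with an adjusted p of 0.586 in edgeR's quasi-likelihood test. Like Dll3, Numbl passed the filter only through compE. Numb itself did not separate, at 16.6 and 85 CPM with compE against 14.5 to 515 CPM in the released libraries (log2 fold change −1.91 ± 1.52). The third member that held was Dtx3, of the Deltex family of ubiquitin ligases, at 173 and 115 CPM with compE, 0.0581, 49.2 and 80.3 CPM in the washout and 70.8 and 0 CPM with Fc-JAG1.

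Among 8 tested genes of γ-secretase and the sheddases that cut before it, 0 held higher and 1 held lower. Over all genes 5% held higher and 2.48% lower. Aph1a, a scaffold subunit of γ-secretase, was at 0 and 6.01 CPM with compE, at 68.2, 9.98 and 13.3 CPM in the washout and at 6.48 and 9.62 CPM with Fc-JAG1. The gap was narrow, 1.08-fold between compE 2 and Fc-JAG1 1, and the log2 fold change was −2.60 ± 2.16. Ncstn, the substrate-binding subunit, was at 289 and 242 CPM with compE, at 0 and 0.285 CPM in washout 1 and washout 3 and at 132 to 321 CPM in the other released libraries, so the groups overlapped. Adam10, a sheddase that cuts Notch before γ-secretase does, was at 0.514 CPM in compE 1 and 272 CPM in compE 2. The inhibited libraries thus differed from each other by more than the released ones, which ran from 162 to 338 CPM. Furin, which processes the receptor on its way to the surface, was at 21.4 and 150 CPM with compE and 60.2 to 1198 CPM in the released libraries.

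Of 20 nuclear partners and corepressors tested, 1 held higher and 0 lower, beside 5% and 2.48% of all genes. Cir1, which links RBPJ to histone deacetylases, had 151 and 515 counts with compE, 0, 5 and 1 counts in the washout and 0 and 1 with Fc-JAG1. Its log2 fold change was 7.52 ± 2.25, with an adjusted p of 0.586 in edgeR's quasi-likelihood test and of 0.000659 in DESeq2's Wald test. The released libraries all lay under the count minimum of 10, so Cir1 also passed the filter only through compE. Maml2, a Mastermind coactivator, was low in compE 1 (0.395 CPM), washout 1 (0.755 CPM) and Fc-JAG1 3 (0.508 CPM) alike and between 6.97 and 229 CPM in the other libraries.

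**Figure D2:**
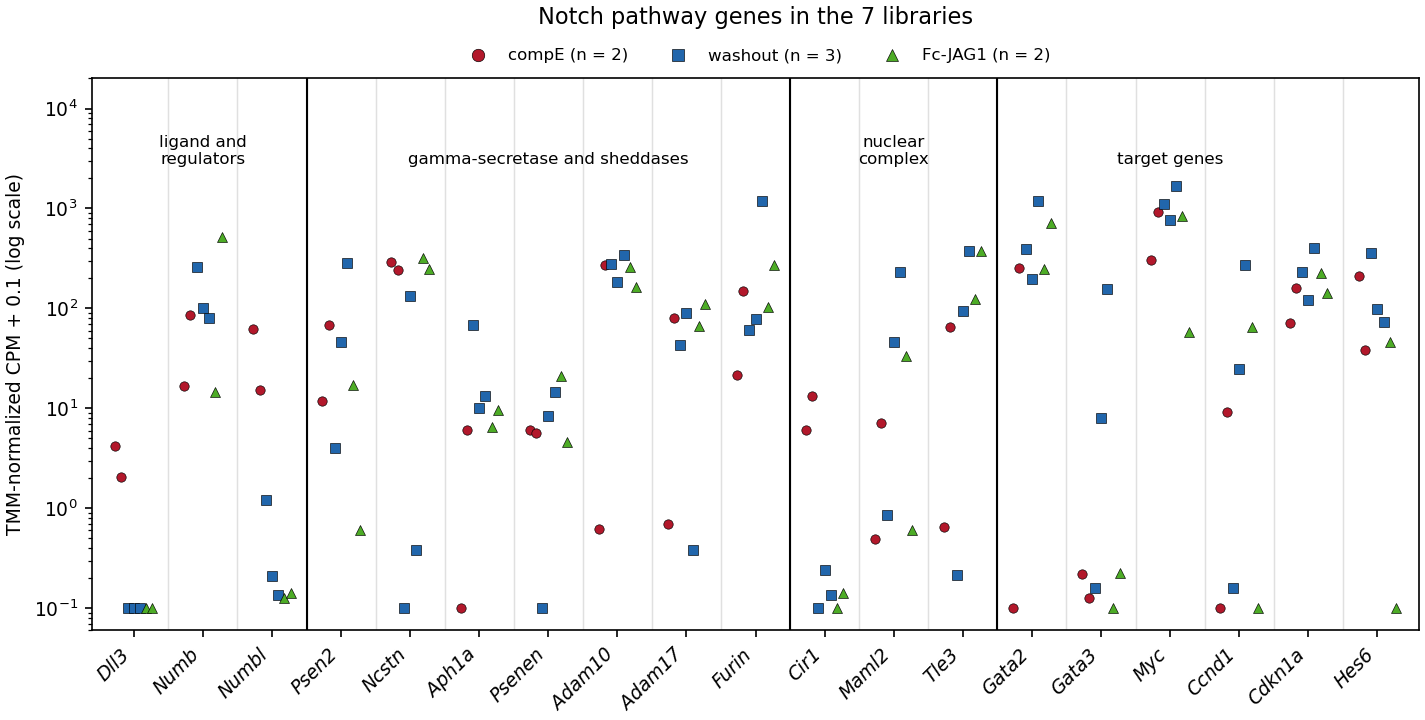
Each point is 1 library; the vertical axis is TMM-normalized CPM plus 0.1 on a log scale, and black lines part the groups of genes. Dll3, Numbl and Cir1 lie above all released libraries with compE, Aph1a lies below them, and none of the 6 target genes separates the groups.

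None of the Notch target genes held a direction, beside 5% of all genes higher and 2.48% lower. With 6 genes tested, 0 is near those shares. Of 16 listed, 6 passed the filter, and Hes1, Hey1 and Hey2 were not among them: Hes1 had 0 and 977 counts with compE, 0, 748 and 1 in the washout and 1867 and 0 with Fc-JAG1. The median log2 fold change of the 6 was −1.54, beside −0.29 over all genes tested, a value that moved to −0.47 with DESeq2's size factors and to −0.20 with total counts. Gata2, a transcription factor needed for blood stem cells, was at 0 and 251 CPM with compE, at 390, 196 and 1190 CPM in the washout and at 248 and 720 CPM with Fc-JAG1. Its log2 fold change was −2.12 ± 1.15 (edgeR quasi-likelihood, adjusted p = 0.969), and compE 2 lay inside the range of the released libraries. Ccnd1, a G1 cyclin, was at 0 and 9.19 CPM with compE and at 0.0581, 24.6, 270, 65.4 and 0 CPM in the released libraries. Myc was at 303 and 916 CPM with compE, and the released libraries spanned it on both sides, from 58 CPM in Fc-JAG1 3 to 1693 CPM in washout 3 (log2 fold change −0.55 ± 0.72). Cdkn1a, an inhibitor of the cell cycle, was at 71.3 and 158 CPM against 122 to 406 CPM, and Gata3 and Hes6 overlapped as well, with log2 fold changes of −8.96 ± 4.81 and 0.12 ± 1.51.

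The core of the RBPJ binding motif, TGGGAA on either strand, was looked for in the promoter windows of RefSeq (GRCm38.p6, 250 bases before to 50 after the start). It was in 8397 of 32851 windows (25.6%) and in 2050 of 7764 tested genes that could be matched by symbol (26.4%). Among matched genes that held with compE lower it was in 48 of 186 (25.8%), and among those with compE higher in 116 of 388 (29.9%). Neither group stood far from the 26.4% of matched genes tested. Among matched Notch target genes the core was in 1 of 4 (25%). The genes shown were chosen from those with the core, in capitals below, in the 250 bases before the start. These bases are shown for Jarid2 and Emilin2, which held lower, for Wls, which held higher, and for the target gene Cdkn1a. They lie at chr13:44730524-44730773 (plus strand), chr17:71311012-71311261 (minus strand), chr3:159839400-159839649 (plus strand) and chr17:29093519-29093768 (plus strand).
Jarid2: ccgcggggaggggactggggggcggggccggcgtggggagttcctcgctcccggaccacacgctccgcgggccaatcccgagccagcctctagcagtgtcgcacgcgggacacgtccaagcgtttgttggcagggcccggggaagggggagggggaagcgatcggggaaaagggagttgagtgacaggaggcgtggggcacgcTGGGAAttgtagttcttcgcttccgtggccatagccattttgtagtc
Emilin2: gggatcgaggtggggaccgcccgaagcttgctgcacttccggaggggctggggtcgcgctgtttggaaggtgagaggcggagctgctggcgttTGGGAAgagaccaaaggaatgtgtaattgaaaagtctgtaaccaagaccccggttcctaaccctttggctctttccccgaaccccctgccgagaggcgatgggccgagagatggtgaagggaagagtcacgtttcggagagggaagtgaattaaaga
Wls: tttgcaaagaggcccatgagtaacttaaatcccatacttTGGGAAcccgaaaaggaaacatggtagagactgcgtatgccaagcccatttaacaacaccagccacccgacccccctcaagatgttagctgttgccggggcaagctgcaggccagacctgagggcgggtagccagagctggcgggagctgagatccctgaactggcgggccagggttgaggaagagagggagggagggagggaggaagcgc
Cdkn1a: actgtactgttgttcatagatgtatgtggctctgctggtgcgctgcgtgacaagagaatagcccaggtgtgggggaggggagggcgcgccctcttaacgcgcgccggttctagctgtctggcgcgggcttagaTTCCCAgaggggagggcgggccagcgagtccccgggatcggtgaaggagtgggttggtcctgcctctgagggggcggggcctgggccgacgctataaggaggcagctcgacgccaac
The core begins 47 bases before the start in Jarid2, 157 in Emilin2, 211 in Wls and 117 in Cdkn1a. A match of these letters is a description of the window and not a bound site.

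The genes with the smallest p among those that held with compE higher included a nuclear receptor and a Wnt carrier. Rxra, the retinoid X receptor alpha (chromosome 2, 27676440 to 27762957, GRCm38), was at 295 and 20.7 CPM with compE, at 0.174, 0.139 and 0.285 CPM in the washout and at 0.0824 and 0.551 CPM with Fc-JAG1. The nearest released library lay 37.6-fold lower, and the log2 fold change was 9.40 ± 2.52. Its adjusted p was 0.586 in edgeR's quasi-likelihood test and 3.159e-05 in DESeq2's Wald test. Wls, which carries Wnt proteins to the cell surface, was at 281 and 74.5 CPM with compE, at 0.29, 0.554 and 0.107 CPM in the washout and at 7.03 and 0.127 CPM with Fc-JAG1 (log2 fold change 6.53 ± 1.76). Tdrd7, a Tudor domain protein of RNA granules, was at 274 and 18.1 CPM with compE and reached 6.59 CPM in washout 3 but at most 0.381 CPM in the other released libraries. Dclk2, a kinase that binds microtubules, was at 160 and 27.3 CPM against 0.174 to 2.54 CPM. Rxra, Wls and Tdrd7 passed the filter only through the compE libraries, whereas Dclk2 also passed through Fc-JAG1.

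For these genes compE 1 was the higher of the inhibited libraries, in places by far. Ptprn2, a protein of secretory granules, was at 254 CPM in compE 1 but at 2.94 CPM in compE 2, against 0.686 to 1.39 CPM in the released libraries. Over the 516 genes on the higher side the median count was 2618 in compE 1 and 1682 in compE 2. Over the 256 on the lower side it was 7 and 275, so compE 1 was the more extreme on both sides.

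Other genes at 10 or more counts in every library held as well. Angel1, of the family of CCR4-type nucleases, was at 58.6 and 16.9 CPM with compE and between 0.424 and 2.1 CPM in the released libraries (log2 fold change 4.90 ± 1.62). Atp7b, a copper-exporting ATPase, was at 6.41 and 20.9 CPM against 0.416 to 1.33 CPM (4.02 ± 1.42), and here compE 2 was the higher. Scmh1, a polycomb protein, was at 186 and 134 CPM against 0.356 to 50.1 CPM (3.59 ± 1.62). Dock4, an activator of Rac and Rap, was at 358 and 75.8 CPM against 0.392 to 28.6 CPM (3.96 ± 1.54). The adjusted p values of these 4 genes in edgeR's quasi-likelihood test ran from 0.586 to 0.969.

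**Figure D3:**
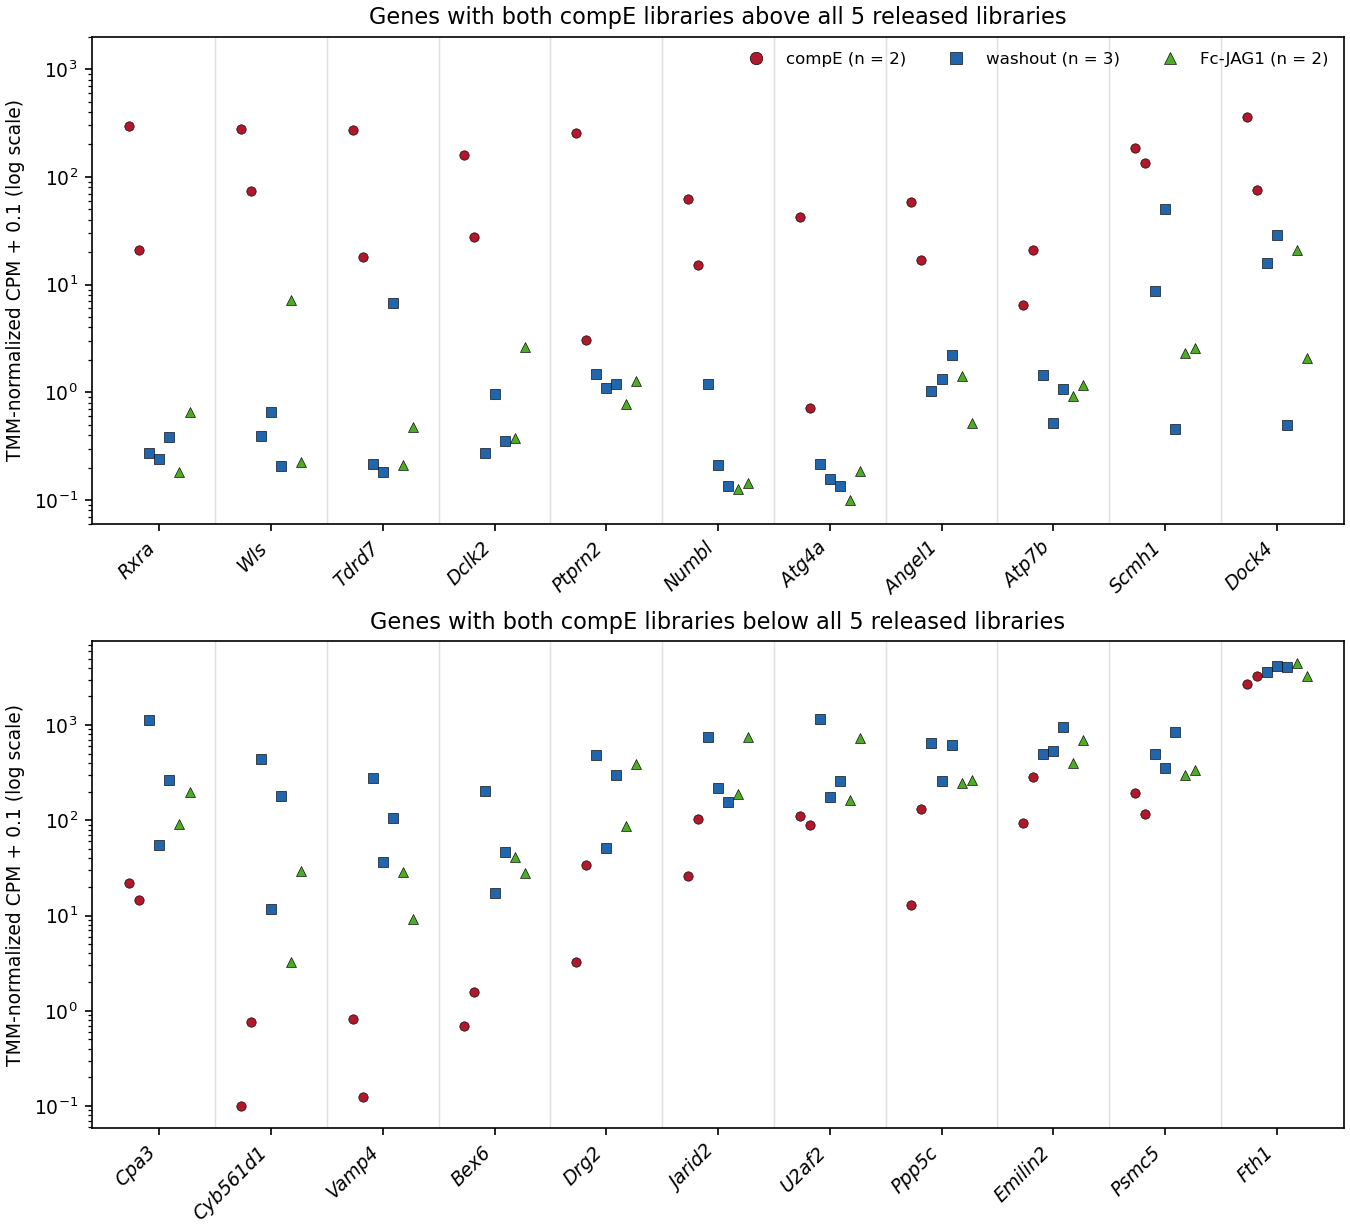
Each point is 1 library; the vertical axes are TMM-normalized CPM plus 0.1 on a log scale. The upper plot shows genes with both compE libraries above all 5 released libraries and the lower plot genes with both below; the compE pair is often far apart, as for Ptprn2 at 254 and 2.94 CPM, and Fth1 has the narrowest gap.

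On the lower side, the gene with the smallest p was Cpa3, a carboxypeptidase of mast cells and blood progenitors (chromosome 3, 20215620 to 20242181, GRCm38). It was at 21.8 and 14.3 CPM with compE, at 1120, 55.6 and 268 CPM in the washout and at 90.6 and 198 CPM with Fc-JAG1. The compE libraries were close to each other and the nearest released library lay 2.56-fold above them. The log2 fold change was −4.27 ± 1.49, with an adjusted p of 0.626 in edgeR's quasi-likelihood test and 0.0046 in DESeq2's Wald test. Against each released condition alone it was −4.74 for the washout and −3.01 for Fc-JAG1.

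Vamp4, a SNARE protein of the trans-Golgi network, was at 0.712 and 0.0258 CPM with compE, at 277, 36.2 and 106 CPM in the washout and at 28.4 and 9.02 CPM with Fc-JAG1. Cyb561d1, of the cytochrome b561 family, was at 0 and 0.671 CPM against 3.18 to 440 CPM, and Bex6 was at 0.593 and 1.47 CPM against 17.2 to 206 CPM. All 3 were near absent with compE and the washout reached the highest values. Jarid2, which recruits the repressive complex PRC2 to chromatin, was at 26.1 and 104 CPM with compE, at 745, 218 and 154 CPM in the washout and at 191 and 757 CPM with Fc-JAG1 (log2 fold change −2.65 ± 1.15). U2af2, which recognises the 3′ splice site, was at 111 and 89.9 CPM against 164 to 1148 CPM (−2.30 ± 1.03). Ppp5c, a serine/threonine phosphatase, was at 12.9 and 132 CPM against 250 to 657 CPM (−2.48 ± 1.13). Drg2, a GTP-binding protein, was at 3.12 and 33.5 CPM against 50.9 to 482 CPM (−3.79 ± 1.56). Emilin2, a glycoprotein of the extracellular matrix, was at 93.5 and 285 CPM against 401 to 964 CPM (−1.71 ± 0.80). The adjusted p values of Jarid2, U2af2, Ppp5c, Drg2, Emilin2 and Bex6 in edgeR's quasi-likelihood test were between 0.927 and 0.969, and those of Vamp4 and Cyb561d1 were 0.902 and 0.749.

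Fth1, the heavy chain of the iron store ferritin, held by a narrow margin and with a small standard error. It was at 2700 and 3276 CPM with compE, at 3600, 4222 and 4057 CPM in the washout and at 4469 and 3288 CPM with Fc-JAG1. Fc-JAG1 3 lay above compE 2 by a factor of only 1.004, and the log2 fold change was −0.39 ± 0.17.

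Blood and lineage genes were at or near the background share, 5% of all genes higher and 2.48% lower. Of 23 factors of blood emergence tested, 0 held higher and 1 held lower. That was Myb, a factor that definitive blood progenitors need, at 56 and 214 CPM with compE and between 267 and 399 CPM in the released libraries (log2 fold change −1.25 ± 1.06). In the myeloid list 1 of 15 held higher: Ly86, which pairs with the Toll-like receptor relative CD180, had 203 and 34 counts with compE and 1, 6 and 9 counts in the washout and 2 and 2 with Fc-JAG1. Of 11 erythroid and megakaryocyte genes 1 held higher, Car2, a carbonic anhydrase, at 176 and 180 CPM against 0.0581, 172, 0, 156 and 0 CPM. Of 13 lymphoid and 10 endothelial genes 0 held in either direction. Ebf1, the B lineage factor, was at 312 CPM in compE 1 but at 1.52 CPM in compE 2, inside the released range of 0.296 to 7.05 CPM, so its log2 fold change of 6.07 ± 1.81 rested on compE 1. The summed macrophage markers lay lower in both compE libraries than in all released ones, as given above, though 0 of the 6 held lower singly. Their part in the lineage values was not tested.

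Stress and signaling lists had few members that held, beside 5% of all genes higher and 2.48% lower. Of 22 immediate early and stress genes 3 held higher and 0 lower: Dusp1, Btg1 and Hspa8. Dusp1, a phosphatase that shuts off MAP kinases, was at 70.8 and 18.8 CPM with compE, at 0.0581, 13.7 and 0.285 CPM in the washout and at 0.659 and 1.95 CPM with Fc-JAG1 (log2 fold change 3.57 ± 1.66). Btg1, an antiproliferative factor, was at 62.4 and 25.9 CPM against 0 to 9.92 CPM (3.21 ± 1.61), and Hspa8, a heat shock cognate chaperone, was at 570 and 460 CPM against 241 to 424 CPM. Ier3, an early response gene of the same list, had 0 counts in both compE libraries and in Fc-JAG1 3, and 4103, 808, 3194 and 1836 counts in the other released libraries. Of 10 p53 target genes 2 held higher, the proapoptotic Bbc3 at 39.7 and 22 CPM against 0 to 9.95 CPM and the nuclease Aen at 429 and 106 CPM against 0 to 91 CPM. Of 23 genes of NF-kB, TNF and Toll-like signaling 2 held higher, the adaptor Tradd and the kinase Ikbkb, the former by a gap of 1.02-fold. Bbc3 and Tradd passed the filter only through compE, as did Ly86 and Car2 above. The list medians did not follow these members: the median log2 fold change was −0.63 for the stress list, −0.84 for p53 targets and 0.17 for the NF-kB list.

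Genes of growth and protein turnover held in both directions. Of 34 genes of MYC-driven ribosome biogenesis 4 held lower (Nop16, Polr1b, Rrp12 and Gnl3) and 1 held higher (Noc3l), beside 2.48% and 5% of all genes, and the median log2 fold change of the list was −0.31, or −0.10 without compE 1, beside −0.29 over all genes. Nop16, a nucleolar assembly factor, was at 149 and 145 CPM with compE, at 326, 259 and 367 CPM in the washout and at 327 and 201 CPM with Fc-JAG1 (log2 fold change −1.01 ± 1.05), and Gnl3, nucleostemin, was at 393 and 397 CPM against 462 to 865 CPM (−0.69 ± 0.67). Of 71 cytosolic ribosomal proteins 5 held higher (Rps4x, Rps7, Rps28, Rpl9 and Rpl34) and 1 lower (Rps3a1), near the 5% and 2.48% of all genes. The median log2 fold change of this list was −0.02, and −0.31 without compE 1. Rps7 was at 130 and 105 CPM with compE, at 24.9, 67.8 and 42.2 CPM in the washout and at 50 and 22.4 CPM with Fc-JAG1. Ribosomal protein genes have many processed copies in the genome. Only uniquely mapped reads were counted, so reads that match near-identical copies equally well were lost.

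Of 31 proteasome subunits 3 held lower and 0 higher, beside 2.48% and 5% of all genes. The median log2 fold change of the list was −0.33, beside −0.29 over all genes, and 0.045 without compE 1. The ATPase subunit Psmc5 was at 192 and 116 CPM with compE, at 503, 354 and 849 CPM in the washout and at 300 and 340 CPM with Fc-JAG1 (log2 fold change −1.61 ± 0.92). Psmc2 was at 138 and 160 CPM against 229 to 536 CPM, and Psmd4 was at 7.63 and 160 CPM against 166 to 284 CPM. Of 14 glycolytic enzymes 2 held lower and 1 higher. Pkm, pyruvate kinase, was at 291 and 294 CPM with compE against 410 to 916 CPM (−1.02 ± 0.74), Aldoa was at 678 and 627 CPM against 703 to 1507 CPM, and Tpi1 was the exception, at 332 and 292 CPM against 155 to 231 CPM. Of 36 chromatin remodelers only Ruvbl2 held, on the lower side, at 56.5 and 126 CPM against 133 to 1055 CPM.

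Cell cycle genes held in small numbers, beside 5% of all genes higher and 2.48% lower. Of 40 G1/S genes 3 held higher (E2f3, Rbl1 and Brip1) and 0 lower, and of 48 G2/M genes 2 held higher (Kif23 and Nusap1) and 1 lower (Cks2). E2f2 and Rrm2, the G1/S members with the smallest p, were fitted lower with compE but did not hold. E2f2 was at 0.91 and 0 CPM with compE against 0 to 183 CPM, and Rrm2 at 11.7 and 150 CPM against 47 to 776 CPM. Kif23, a motor of the cytokinetic midzone, was at 619 and 130 CPM with compE, at 121, 58.5 and 0.0356 CPM in the washout and at 89.1 and 86.8 CPM with Fc-JAG1 (log2 fold change 2.40 ± 1.26). Rbl1, a relative of the retinoblastoma protein, was at 227 and 221 CPM against 85.9 to 192 CPM. The median log2 fold change was −0.05 for G1/S and 0.08 for G2/M genes, beside −0.29 over all genes.

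The remaining lists had 0 to 3 members that held, beside 5% of all genes higher and 2.48% lower. Of 31 autophagy genes 2 held higher: the starter kinase Ulk1 was at 65.8 and 56.6 CPM with compE against 0, 14.2, 0.0356, 10.1 and 0 CPM, and the protease Atg4a was at 42.3 and 0.619 CPM against 0 to 0.116 CPM. Of 13 nuclear long noncoding RNAs 2 held higher, Meg3 at 123 and 10.4 CPM against 3.6 CPM in washout 2 and 0 in the other released libraries, and Snhg8 at 220 and 99.7 CPM against 23.5 to 46.5 CPM. Ulk1, Atg4a and Meg3 passed the filter only through compE. Of 21 cholesterol synthesis genes Mvk, mevalonate kinase, held higher at 230 and 38.9 CPM against 0 to 17.5 CPM. Of 30 splicing factors Hnrnpm held higher, at 1184 and 576 CPM against 143 to 503 CPM, while U2af2 held lower. In the actin list 1 of 26 held higher (Cfl1) and 2 lower (Myh9 and Myl6), and of 12 MHC class I presentation genes 1 held higher (Tapbp) and 1 lower (Psme2). Among 26 other substrates of γ-secretase, 22 translation factors, 9 mitochondrially encoded genes and 8 interferon-stimulated genes, 0 held in either direction.

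**Figure D4:**
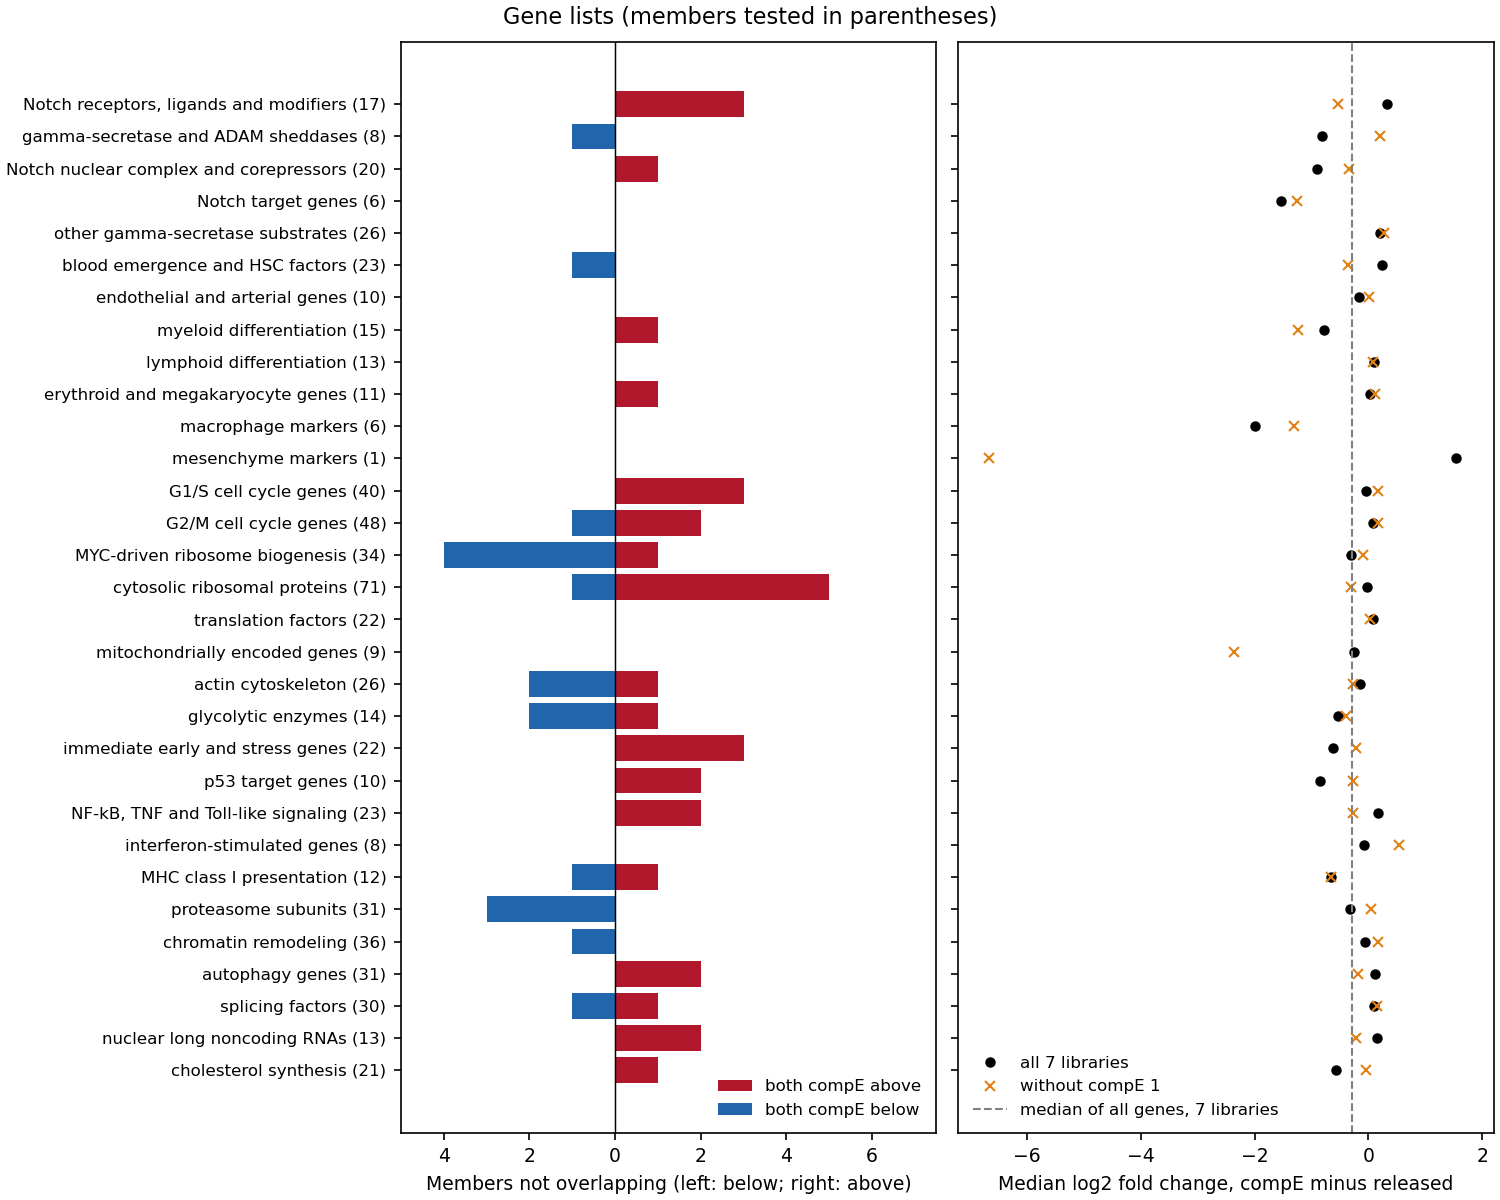
The left plot counts the members of each list with both compE libraries above (red, right) or below (blue, left) all 5 released libraries. The right plot gives the median log2 fold change of each list with all 7 libraries (dots) and without compE 1 (crosses); the dashed line is the median of all genes, −0.29, and the mesenchyme list holds 1 gene only.

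Presence and absence gave a second view. At 10 or more counts in both compE libraries and in no released library were 81 genes (0.786%), of which 16 had 0 counts in all 5 released libraries. Such genes could pass the filter only through compE, and 2 libraries reach a minimum together more easily than 5 do, so the reverse count of 5 genes (0.0485%) is not its match. Of the 81 genes 53 code for proteins (65.4%), beside 91.6% of all genes tested, while 18 were long noncoding RNAs (22.2%, beside 4.33%) and 10 pseudogenes (12.3%, beside 3.79%). Their median count was 59 in compE 1 and 34 in compE 2, and 12 had at least 100 counts in both.

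Those named here were chosen after their counts were seen. Nkpd1 had 336 and 317 counts with compE and 0 counts in every released library. Set against the floor of 3 counts, its mean CPM with compE was at least 93.6-fold higher. C1ql4, a secreted protein of the C1q family, had 183 and 242 counts, and Nme1, a nucleoside diphosphate kinase, had 468 and 79, both against 0 in every released library. Vegfc, a growth factor for lymphatic endothelium, had 4222 and 88 counts against 0 to 5, and Pou4f1, a POU homeobox factor, had 1459 and 223 against 0 to 3. On the other side stood Itgb6, Krtcap3, Ano10, Gm13219 and Ankfn1. Krtcap3 had 0 counts in both compE libraries, 585, 164 and 993 counts in the washout and 450 and 1379 with Fc-JAG1. Against the same floor its mean CPM was at least 295-fold lower with compE. The released libraries behind that mean ran from 4.545 CPM in washout 2 to 58.41 CPM in Fc-JAG1 3. Gm13219 never passed 26 counts.

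**Figure D5:**
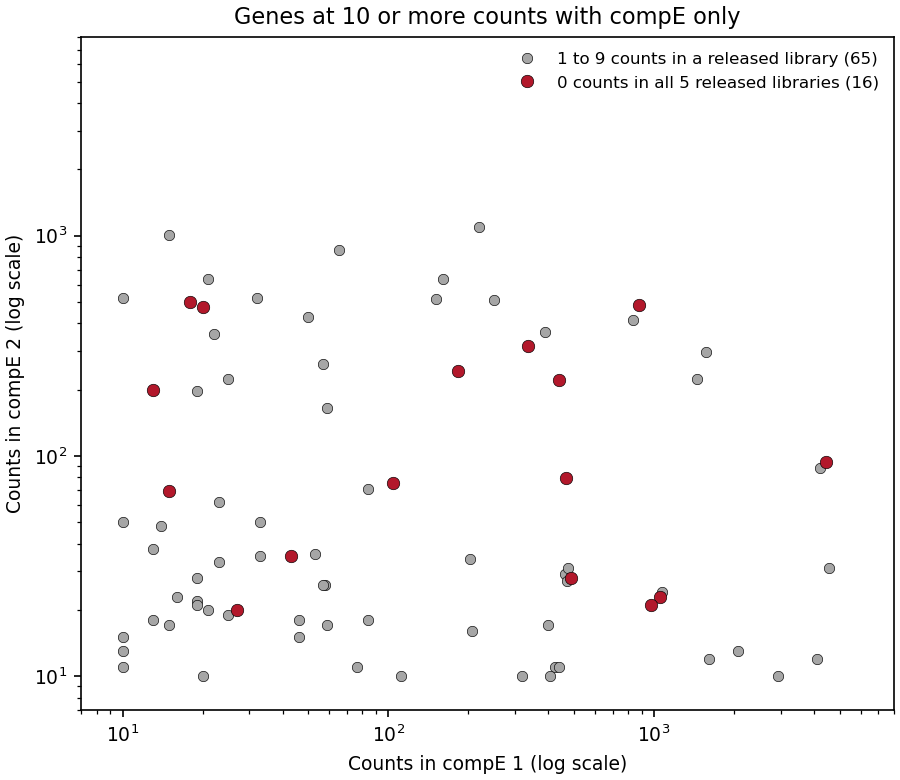
Each point is 1 of the 81 genes at 10 or more counts in both compE libraries and in no released library; the axes are counts in compE 1 and compE 2 on log scales. The 16 red points had 0 counts in all 5 released libraries, and many genes have high counts in 1 compE library and few in the other.

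The released conditions were also set against each other. For 39 genes (0.378%) both compE libraries lay above all washout and below all Fc-JAG1 libraries, and for 25 genes (0.242%) the reverse. For these few the compE libraries thus lay between the released conditions, an order that was not tested. Mlycd, malonyl-CoA decarboxylase, was at 0.989 and 52.9 CPM with compE, at 0, 0.388 and 0.0356 CPM in the washout and at 81.3 and 331 CPM with Fc-JAG1. Josd1, a deubiquitinase, was at 82.4 and 69.4 CPM with compE, at 154, 108 and 93 CPM in the washout and at 2.8 and 1.27 CPM with Fc-JAG1. Dlg4, a scaffold protein, was laid out the same way, at 20.8 and 16.3 CPM against 189, 23.5 and 140 CPM in the washout and 0.165 and 0.0847 CPM with Fc-JAG1. In edgeR's quasi-likelihood test of Fc-JAG1 against the washout 1 gene was called, and 603 (5.85%) had an unadjusted p under 0.05. In that test Mlycd, Josd1 and Dlg4 each had an adjusted p of 0.816. The called gene was CT010467.1, an annotated ribosomal RNA gene, at 2987, 6068 and 1027 CPM in the washout and 5495 and 10410 CPM with Fc-JAG1, with compE at 6949 and 5569 CPM (log2 fold change 1.24, adjusted p = 0.0336).

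The residual spread was large: the common dispersion was 2.81 and the median standard error of a log2 fold change was 1.66, or 1.32 among genes at 10 counts in all 7 libraries. The libraries were amplified from small sets of cells and carry no molecular identifiers, so high counts can come from few molecules. The standard errors come from the fit and include the spread between libraries, whereas the floors cover counting error only.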

How the data were processed

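EU-labeled RNA of 7 libraries was measured by RNA-seq. Per the submitters' processing notes and the methods, the authors trimmed reads with cutadapt 4.2, mapped them to GRCm38 with STAR 2.7.8 and counted unique reads per gene with featureCounts (Subread 2.0.1). The deposited counts are whole numbers with no normalization. The authors' filtered counts and log2 values were read only to check the filter, whose gene set was the same. Symbols and positions came from GENCODE M21, which placed 55227 identifiers.

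CPM were scaled by TMM. The compE libraries were tested against the 5 released libraries with no block in edgeR 4.0.16 (R 4.3.3, quasi-likelihood, bias-adjusted deviances, Benjamini-Hochberg, threshold 0.05), and 3 conditions gave the separate contrasts. DESeq2 1.42.0, limma 3.58.1, other scalings and filters, an embryo block and leaving out each library were alternatives. Scripts were tested on simulated data.

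The comparison, lists and tests were chosen with earlier results of these data known. Named genes were those with the smallest p among genes that held (10 per side, and 8 per side among genes at 10 counts in all 7 libraries), the 3 smallest p of each list, all tested Notch targets and γ-secretase genes (1 is not reported here), and 5 per side whose direction turned between released conditions. Other members that held are named where a list had 5 or fewer, and were chosen after their values were seen. Libraries with the same embryo number deviated from their condition's mean with correlations of −0.0854 to 0.0915 (5 pairs). In a condition of 2 libraries the deviations mirror each other, so these values cannot show whether the numbers are pairs. The paper treated the samples as paired and had the biological sample in its model. No block was used in the main fit here, since embryo 3 has no compE library. No molecular identifiers were used.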

Additional observations from a re-analysis of the deposited data

Results flagged for a closer look

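For 39 genes (0.378% of those tested) the compE libraries lay above all washout and below all Fc-JAG1 libraries, and for 25 genes (0.242%) the reverse, so every sample of one released condition lay on one side of compE and every sample of the other on the opposite side. The difference was not tested for these as a set. The difference itself passed the threshold for CT010467.1, the ribosomal RNA gene, with an adjusted p of 0.0336 in edgeR's quasi-likelihood test.

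Among the 46 genes named with a fold change, 7 had 1 released library far from the other 4, by the gap to the nearest library as a share of the range in log2 CPM. Numbl was high in washout 1 (0.75 of the range). Myc was low in Fc-JAG1 3 (0.763), and so were Hes6 (0.76) and Ier3 (0.711), each with 0 counts there. Tdrd7 was high in washout 3 (0.712) and Meg3 in washout 2 (1), the only released library with any Meg3 counts. Kif23 was low in washout 3 (0.897), with 1 count. For normally spread values such gaps arise in about 1 of 20 groups of this size by chance. Whether that rate holds for these values, some of them at 0 counts, was not tested.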

How the results depend on the processing

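The count of 0 calls in edgeR's quasi-likelihood test stayed at 0 higher and 0 lower under other scalings, under the fit on 3 conditions, under the earlier quasi-likelihood fit, under limma voom and without each library in turn. Exceptions were 3 genes lower with no filter beyond a total of 10 counts, and other tests. The likelihood ratio test called 43 genes higher. DESeq2's Wald test called 91 higher and 170 lower, and leaving out each library gave 0 to 190 higher and 109 to 2051 lower. There compE decided the result: 0 genes were called higher without compE 1, and 27 higher and 2051 lower without compE 2, with the remaining compE library assumed to vary like the released ones. Without washout 2 it called 190 higher and without Fc-JAG1 1 it called 145.

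With the embryo number as a replicate block, edgeR called 0 genes in either direction and DESeq2 called 169 higher and 301 lower. In that block washout 3 and Fc-JAG1 3 carry no weight, since embryo 3 has no compE library.

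Held directions, 516 higher and 256 lower, came to 120 and 99 when only genes at 10 counts in all 7 libraries were kept and rescaled, to 85 and 19 with a 4-fold gap, and the lower count to 138 when every released library had to reach 100 counts. Leaving out a library gave 681 to 1742 higher and 303 to 1537 lower, larger by construction since fewer libraries have to agree. The highest of these were without compE 2, followed by those without compE 1, 927 and 571. Counts also passed 1.5 times without washout 2 (777 higher), washout 1 (491 lower), washout 3 (403 lower) and Fc-JAG1 3 (456 lower).

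The 81 genes detected with compE only became 33 at a minimum of 3 counts and, leaving out a library, 81 to 173, with 173 without washout 2 and 140 without Fc-JAG1 1. The filter fixes 81 when a compE library is left out. The 5 genes detected in all released libraries only became 3 at 50 counts, 9 at 3 counts and 11 with counts scaled to the smallest total, and 11 to 375 without 1 library, over 1.5 times whichever was left out and the latter without compE 2.

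Of the 46 genes named with a fold change, 43 kept their direction in every fit that gave them a value; 10 had none without a compE library, since they passed the filter only through compE (Atg4a, Cir1, Dll3, Ly86, Meg3, Numbl, Rxra, Tdrd7, Ulk1 and Wls). Hes6 (0.12) reversed with DESeq2's size factors (−0.086), with the replicate block (−0.51), in DESeq2 (−0.10, and −0.73 with the block), and without each library but compE 2 and washout 1 (−1.52 to 1.21 over all 7). Myc reversed in limma voom (0.005) and without compE 1 (−1.43 to 0.16 over all 7), and Ebf1 without compE 1 (−0.53 to 7.52 over all 7). The causes were not tested.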
